A study of Mus musculus with 16 samples.

Results

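The comparison asks whether the difference between villus and crypt was the same in enterochromaffin (EC) cells as in the other epithelial cells of the mouse small intestine. It used all 16 libraries of the series, 4 in each of 4 groups, EC and other epithelial cells (epi) from crypt and from villus. For each gene the quantity was a difference of differences on the log2(FPKM + 1) scale. The EC minus epi difference in the crypt was subtracted from the EC minus epi difference in the villus. A positive value means that villus over crypt was higher in EC than in epi, and a negative value that it was lower. The genes described in most detail are those with opposite site differences, called in both cell types with opposite sign and also called in the difference of differences. They numbered 590 of the 14089 genes tested and of the 20072 in the deposited table.

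All mice carried Tph1-CFP, a reporter in which cyan fluorescent protein marks cells that use the Tph1 gene. They were untreated and 8 to 16 weeks old. Crypt and villus fractions of the small intestine were sorted into CFP-positive cells (EC) and CFP-negative epithelial cells (epi), and each library held RNA of 5000 pooled cells. The epi groups are therefore mixtures of cell types, and EC is defined by the reporter. The labels do not say which libraries came from one mouse, so p-values here measure the spread between libraries, part of which may be technical.

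EC cells are endocrine cells of the gut lining that make serotonin. They arise from stem cells in the crypt, move up onto the villus and change the peptides they make on the way. Most of the other villus cells are absorptive enterocytes, while the crypt also holds stem cells, dividing progenitors, Paneth cells and goblet cells. Goblet, Paneth and endocrine cells form the secretory lineage, which shares early regulators such as Atoh1. In bulk libraries, fewer cells of a type and less RNA per cell cannot be told apart, and this holds for every value below.

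One library stood apart. Villus epi 2 had a mean correlation with its own group of 0.812, against at least 0.971 for libraries of the other 3 groups and 0.923 to 0.926 for the rest of its group (computed across genes, which are not independent). It also held the highest summed level of stromal and endothelial markers, 164 FPKM against 6.83 to 8.42 in the other villus epi libraries. Most of that sum was 1 gene, Dcn, at 130 against 0.197 to 1.46 in the other villus epi libraries. Pecam1 was at 23.1 against 1.25 to 3.29, and Col1a1 only at 1.93 against 0.61 to 1.14. Crypt EC 1 stood apart for many of the genes below, and crypt epi 3 had the lowest summed enterocyte markers of its group (4067 against 11078 to 11230). Deposited values summed to between 731415 and 1415123 FPKM per library, and the read depth is unknown. The labels could be checked on cell type markers. The 10 endocrine markers summed to 0.285% of the crypt EC level in crypt epi and to 0.675% of the villus EC level in villus epi. Enterocyte markers in EC stood at 14.8% of the epi level in the crypt and 1.90% in the villus. Goblet markers in EC stood at 4.22% of the epi level in the crypt and 38.1% in the villus, where Agr2 and Tff3 made most of the EC sum. Paneth markers in EC stood at 3.85% and 226%, their sum in epi being 210468 to 252817 FPKM in the crypt and 472 to 790.4 in the villus. Clps and Nupr1 made most of the villus EC sum, at 772 and 246 of 1092 FPKM in villus EC 1. Single Paneth markers went both ways. Defa24 was at 1.29 to 2.05 in villus EC against 113 to 338 in villus epi, and Habp2 at 21.3 to 31.4 against 0.477 to 6.08. The percentages are ratios of mean sums, and their part in the results below was not tested unless a value is given.

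The site difference depended on cell type in many genes. The limma fit called 6050 genes in the difference of differences (adjusted p below 0.05, Benjamini-Hochberg over all tested genes), 3792 positive (26.9% of those tested) and 2258 negative (16%). Of these calls, 2931 positive and 1674 negative ones had an absolute log2 value of at least 1. The 2 site contrasts behind it were unequal in size. In EC 1454 genes were higher in the villus (10.3%) and 2282 lower (16.2%), while in epi 2761 were higher (19.6%) and 4994 lower (35.4%). The median difference of differences over all tested genes was 0.21, with medians of -0.05 for EC and -0.19 for epi, so members are read against these values. Across genes the site differences of EC and epi had a Pearson r of 0.396, a description over genes that share libraries. Most calls came from genes that moved in one cell type. Of the positive calls 2212 were called for site in epi alone, 442 in EC alone, 737 in both with the same sign, and 89 in neither. Of the negative calls these numbers were 1228, 406, 260 and 86.

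Opposite movement was the rarer pattern. Both site contrasts called 2493 genes, of which 590 had opposite signs, and every one of the 590 was also called in the difference of differences. In 312 genes (2.21% of those tested) the villus level was higher in EC and lower in epi, and in 278 (1.97%) it was lower in EC and higher in epi. The first set had a median site difference of 0.98 in EC and -1.21 in epi, and the second -0.94 and 1.17. The 4 villus and 4 crypt libraries did not overlap in either cell type for 252 of the 312 and for 217 of the 278, against 820 of all 14089 tested genes (5.82%) without overlap in both and with opposite direction. Villus EC held the highest group mean in 264 of the 312 and crypt epi in the other 48, whereas villus epi held it in 222 of the 278 and crypt EC in 56. Over all tested genes the highest mean was in villus EC for 3478, villus epi for 4169, crypt EC for 2761 and crypt epi for 3681. These figures describe sets that the same values chose. Just inside the first set lay Capn2, with an adjusted p of 0.04995 in epi, and just outside it Rnmt, with 0.05014 in EC. For the second set the nearest genes were Tprkb (0.04999 in EC) inside and Ces2b (0.05064 in EC) outside.

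**Figure D1:**
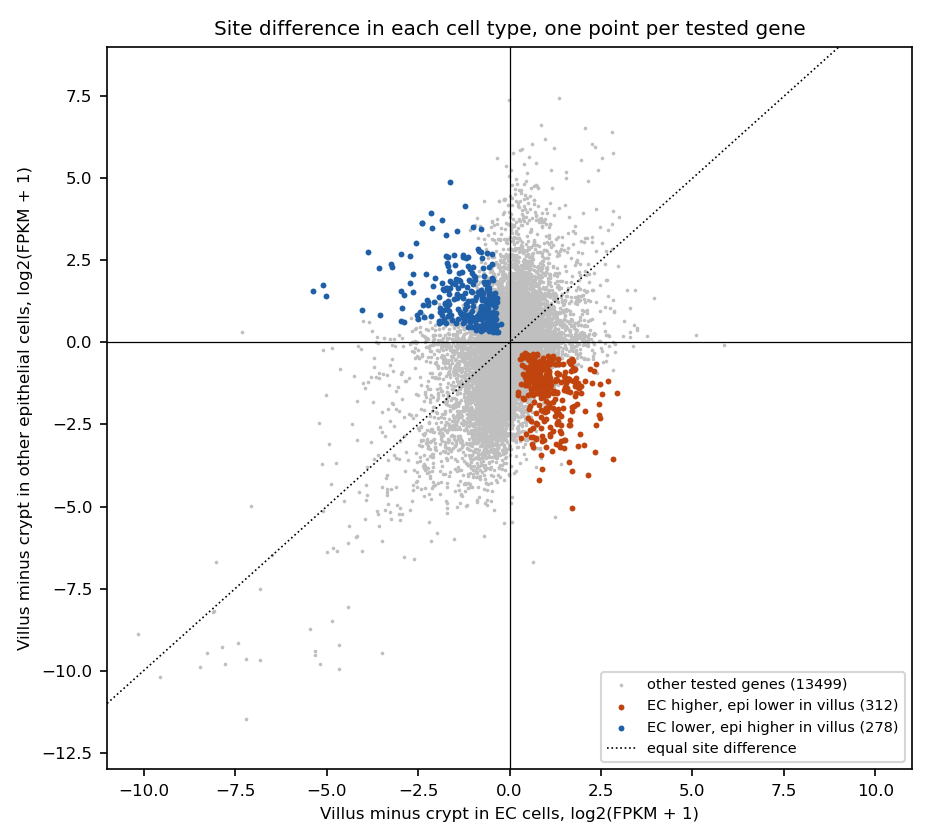
Villus minus crypt difference in EC cells (horizontal axis) and in other epithelial cells (vertical axis), in log2(FPKM + 1) units, with one point for each of the 14089 tested genes. The 312 red genes in the lower right were called higher in villus in EC and lower in epi, the 278 blue genes in the upper left the reverse, and the dotted line marks an equal difference in both cell types.

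A stricter view is whether the order of the cell types itself turned over. In 775 tested genes (5.5%) all EC libraries lay below all epi libraries in the crypt and above them in the villus, and in 202 (1.43%) the order turned the other way. Of the genes with opposite site differences, 71 of the 312 and 56 of the 278 did so. The rest kept 1 cell type on top at both sites, or overlapped at one of them. EC had the higher mean at both sites in 180 of the 312, and epi had it in 151 of the 278. Among all 14089 tested genes EC had it in 5629 and epi in 3724.

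Genes of the secretory lineage led the set that was higher in villus EC and lower in villus epi. Agr2, a protein disulfide isomerase needed for mucin folding, was at 248, 1025, 1056 and 925 FPKM in crypt EC 1 to 4 and at 4491, 4928, 5718 and 5021 in villus EC. In epi it was at 6662, 6208, 6358 and 6692 in the crypt and 749, 504, 520.5 and 487 in the villus. Both pairs of groups were apart without overlap, and crypt EC 1 was the lowest library of all 16. The site difference was 2.83 in EC and -3.54 in epi, which gave a difference of differences of 6.37 ± 0.49 (SE). The gene lies at chr12:35992907-36004087 (plus strand, GRCm38, GENCODE M21), next to its relative Agr3 at chr12:35925620-35949736. Agr3 had 62.7, 127, 135 and 133 in crypt EC, 361, 379.8, 441 and 418 in villus EC, 32, 29.4, 26 and 29.4 in crypt epi and 6.1, 15, 4.87 and 5.81 in villus epi. Unlike Agr2, it was higher in EC than in epi at both sites.

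Ern2, the endoplasmic reticulum stress sensor of mucus-secreting cells, followed the same course. Its values were 5.46, 15.9, 14.3 and 15.6 in crypt EC and 62.4, 74, 70.8 and 52 in villus EC, against 119, 128, 100.3 and 102 in crypt epi and 16.3, 5.76, 10.2 and 10.5 in villus epi (difference of differences 5.69 ± 0.43). Atoh1, the transcription factor that commits progenitors to the secretory lineage, was at 5.37, 5.93, 5.0 and 4.02 in crypt EC and 19.3, 29.8, 26.3 and 13.5 in villus EC. In epi it fell from 130.03, 139, 111 and 128 in the crypt to 23.3, 4.63, 19.9 and 13.2 in the villus, so that the villus values of EC and epi overlapped. Spdef, which acts after Atoh1 in goblet and Paneth cells, had 3.29, 3.57, 4.44 and 2.27 and 9.5, 14.8, 12.4 and 6.58 in crypt and villus EC and 54.4, 45.6, 33.2 and 44.5 and 13.4, 4.35, 11.2 and 7.9 in crypt and villus epi. Bcas1, whose role in the gut is less settled, rose in EC from 3.66, 4.43, 3.84 and 4.18 to 23.4, 26.9, 26.2 and 29.6 and fell in epi from 107, 119.8, 89 and 108 to 38.8, 11.5, 23.8 and 21.5. For Atoh1, Spdef and Bcas1 crypt epi held the highest values, so the genes were not restricted to EC. Arhgef38 was highest in villus EC, at 61.5, 54.4, 63.7 and 54.9 against 6.85, 11.4, 11 and 14.1 in crypt EC, 16, 13.6, 12.6 and 17.1 in crypt epi and 3.65, 0.247, 2.0 and 2.25 in villus epi.

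Of the 12 goblet cell markers tested, 6 had a positive and 1 a negative difference of differences, and 5 were in the set with opposite site differences. These were Agr2, Atoh1, Spdef, Klk1 (3.90) and Tff3 (3.02), the last 2 given as differences of differences. Tff3, the goblet trefoil peptide, is named after its values were seen. Its fall in epi was -0.81, and it was not called when crypt epi 1 or crypt epi 4 was left out (-0.77 and -0.75, adjusted p = 0.0529 and 0.0563, limma). Leaving out villus epi 2 gave -0.49. Muc2, the main intestinal mucin, was not called in the difference of differences. In villus EC 6 of the 12 were called higher and 3 lower, so the list did not move as one. Spink4, for example, was at 337 to 709 in crypt EC and at 6.75 to 17.9 in villus EC. Summed goblet markers in EC were 2656 to 3937 FPKM in the crypt and 10710 to 14869 in the villus. In epi they were 69840 to 84089 and 21912 to 43420. These sums contain the genes above and so give no separate view of them. In villus EC 1, Agr2 and Tff3 alone stood at 4491 and 5473 of the 10710 FPKM. The part of goblet cells or their RNA in these values was not tested.

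A pair of Paneth cell markers lay in the same set. Clps, which encodes colipase, was at 144, 218, 227 and 218 in crypt EC, 772, 993, 1083 and 743 in villus EC, 3337, 3320.2, 2722 and 3076 in crypt epi and 284, 146, 182 and 171 in villus epi. Habp2, a secreted protease gene, had 5.59, 9.22, 9.78 and 6.39 in crypt EC and 21.3, 30.5, 31.4 and 26.1 in villus EC, and 123, 132, 101.39 and 109 and 6.08, 0.477, 2.76 and 3.04 in crypt and villus epi. Both rose in EC and fell in epi without overlap, by 2.15 and -4.03 for Clps and by 1.71 and -5.04 for Habp2. No other Paneth marker was called higher in villus EC. Of the 12 tested, 9 were called lower in villus EC and all 12 lower in villus epi, with list medians of -5.01 in EC and -8.69 in epi. The difference of differences was positive in 8, of which 5 were called lower in villus in both cell types, 1 in epi alone, and 2 were Clps and Habp2.

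Keratin genes separated in the same way. Krt7 was at 244, 627, 618 and 650.1 in crypt EC, 1389.6, 1595, 1614 and 1711 in villus EC, 81.9, 79.1, 71.4 and 80.6 in crypt epi and 14.9, 7.21, 14.2 and 17.7 in villus epi. Krt19 had 1094, 1585, 1513 and 1514 in crypt EC and 3489.6, 4109.9, 4332 and 4321 in villus EC, and 2871, 2601, 2806 and 2701 and 446, 109, 572 and 528 in crypt and villus epi. These intermediate filament genes had site differences of 1.66 and 1.52 in EC and of -2.51 and -2.97 in epi. In the list of keratin, tubulin and actin genes 13 of 25 members were positive and 3 negative, with 5 in the opposite set, among them, as differences of differences, Krt18 (3.05) and the neuronal tubulin gene Tubb2b (3.14). The median of the list was 1.14.

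Of the sterol synthesis genes 3 rose in villus EC and fell in villus epi. Fdps, farnesyl diphosphate synthase, stood at 127, 129, 129 and 123 in crypt EC and 234, 226, 224 and 232 in villus EC. In epi it was at 221, 229, 229.8 and 224 in the crypt and 65.9, 36.8, 50.4 and 36.1 in the villus. Crypt epi and villus EC were thus at nearly the same level, and both other groups lay below. Cyp51, lanosterol demethylase, gave 33.6, 36.8, 33.8 and 38.2 and 58.8, 54.3, 55.3 and 74.8 in crypt and villus EC against 62, 50.6, 60.7 and 56.1 and 14.3, 7.48, 9.64 and 7.53 in epi. Hmgcs1, the cytosolic synthase that opens the pathway, was the third member with opposite site differences (1.18 in EC and -1.54 in epi). Of 21 cholesterol synthesis genes tested 15 were positive and 0 negative (median 2.60). Site was called lower in epi in 16 of them and higher in 2, and in EC higher in 4 and lower in 1. Without villus epi 2, a fit that called more genes in general, 18 were positive and 0 negative. In that fit 9 of the 21 rose in villus EC and fell in villus epi.

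The protein folding genes of the endoplasmic reticulum gave 18 positive and 0 negative calls among 25, with a median of 1.47. Site was called lower in epi in 18 and higher in 2, and in EC higher in 5 and lower in 1. Beside Ern2, the ubiquitous stress sensor Ern1 (0.86 in EC and -1.42 in epi) and its splicing target Xbp1 (0.82 and -0.99) had opposite site differences.

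Among endocrine genes, 3 transcription factors rose in villus EC and fell in villus epi. Foxa1, a pioneer factor of endodermal lineages, was at 12.8, 19.99, 19.4 and 21.2 in crypt EC, 50.1, 51.9, 54.7 and 57.8 in villus EC, 3.99, 3.43, 3.93 and 3.93 in crypt epi and 1.64, 3.14, 0.824 and 1.3 in villus epi. Sox4, a regulator of endocrine progenitors, went from 9.27, 8.33, 8.16 and 8.48 to 33.6, 28.6, 24.3 and 23.4 in EC. Its epi values were 2.69, 2.75, 2.82 and 10.4 in the crypt and 0.291, 3.13, 0.315 and 0.426 in the villus, with crypt epi 4 and villus epi 2 far above their groups. The third was Tox3 (0.61 in EC and -0.69 in epi), whose EC call was lost without crypt EC 2 (0.56, adjusted p = 0.056, limma). Of 21 endocrine transcription factors tested, 7 were positive and 3 negative (median 0.53). Syt7, a calcium sensor of granule exocytosis, rose in EC from 1.28, 5.98, 5.64 and 6.58 to 26.9, 32.9, 32.6 and 26.8 and fell in epi from 4.0, 5.2, 3.03 and 3.39 to 0.735, 0.519, 0.677 and 0.564. Among 24 exocytosis genes 9 were positive and 4 negative. Over all tested genes 26.9% were positive and 16% negative, so these counts are not read as a result about either list.

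Other members of the set had less in common. Slc12a8, a transporter gene reported to carry nicotinamide mononucleotide, had 14.5, 25.1, 23.7 and 22.9 in crypt EC, 77.9, 84.2, 89.1 and 80.6 in villus EC, 129, 134, 122 and 129.5 in crypt epi and 18.1, 21, 18.6 and 13.5 in villus epi. Arg1, arginase 1, was at 5.88, 8.62, 8.69 and 10.03 in crypt EC and 29.8, 27.2, 29.6 and 32.9 in villus EC, and at 6.29, 5.84, 6.92 and 6.35 and 2.2, 0.141, 1.2 and 0.614 in crypt and villus epi. Each was without overlap between the sites in both cell types.

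**Figure D2:**
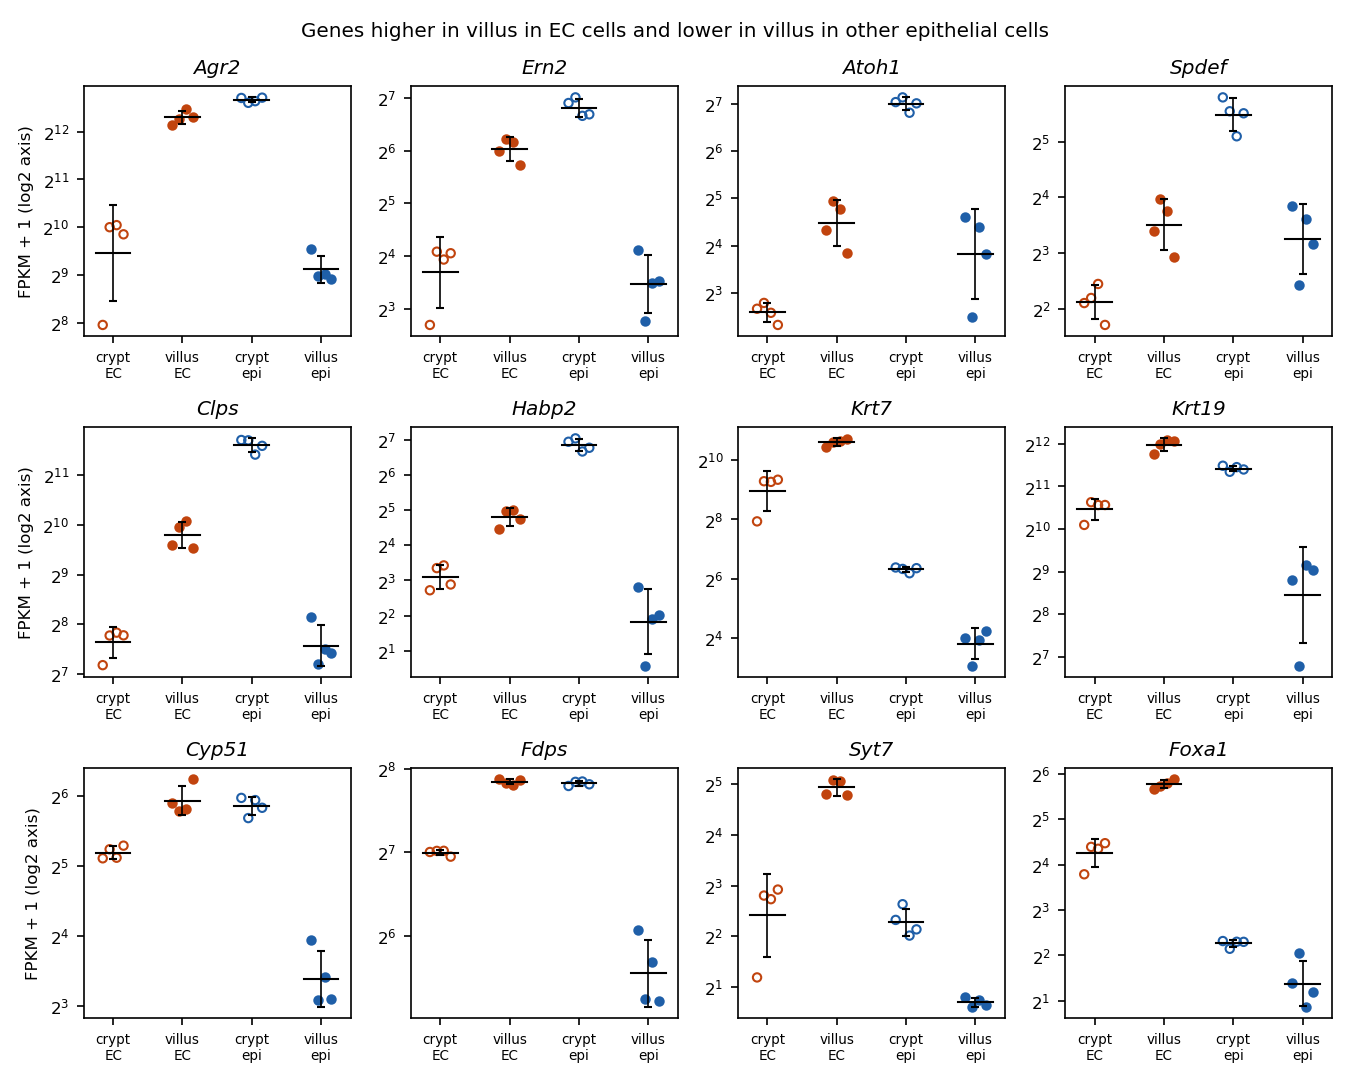
FPKM + 1 on a log2 axis in each library for 12 genes that were higher in villus in EC and lower in villus in epi. Open points are crypt and filled points villus libraries, red is EC and blue epi, and bars give the mean ± SD of the log2 values of the 4 libraries. In each panel the filled red points lie above the open red ones, while the filled blue points lie below the open blue ones.

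Antigen presentation by MHC class II led the reverse set, lower in villus EC and higher in villus epi. Class II molecules present peptides to CD4 T cells, and the invariant chain Cd74, the H2-DM peptide exchangers and cathepsin S (Ctss) load them. Cd74 was at 629, 115, 111 and 101.01 in crypt EC, 10.1, 56.7, 38.5 and 8.05 in villus EC, 527, 546, 1859 and 490.1 in crypt epi and 7727, 3128, 4414 and 4340.2 in villus epi. Crypt EC 1 and crypt epi 3 were each several times above the rest of their group, yet the sites did not overlap in either cell type. The class II alpha chain gene H2-Aa had 194, 26.5, 28 and 24.6 and 3.78, 19.6, 13.1 and 2.85 in crypt and villus EC, and 122, 112, 476 and 115 and 2981, 2356, 1635 and 1534 in crypt and villus epi. Its site difference was -2.38 in EC and 3.62 in epi. The fall in EC depended on single libraries. It was not called without crypt EC 1 (-1.68, adjusted p = 0.0583), villus EC 1 (-2.10, 0.0584) or villus EC 4 (-2.0, 0.0623, all limma). H2-DMb1 held its call in all 16 leave-one-out fits, with 15.6, 4.6, 5.62 and 4.76 in crypt EC, 0.108, 1.41, 1.06 and 0.15 in villus EC, 15.1, 16.9, 31.4 and 16 in crypt epi and 121, 99.3, 64.9 and 61.3 in villus epi. Ctss, at 9.49, 7.04, 5.66 and 4.58 and 0.701, 2.53, 1.69 and 0.659 in EC and 35, 32.4, 35 and 31.1 and 185, 134, 222 and 201 in epi, varied less between libraries.

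Of the 10 class II genes tested 9 were negative and 0 positive, with a median of -3.73, and 6 had opposite site differences, the others in that set being H2-DMa and H2-DMb2. In epi 9 rose in the villus. H2-Ab1 and H2-Eb1, the beta chain genes, rose in villus epi (3.89 and 2.13) but were not called in EC (0.73 and -0.46), and the class II transactivator Ciita showed the same calls (1.72 in epi and -0.91 in EC). H2 genes are a multigene family, so their values are uncertain where the counting could split reads. Without villus epi 2 all 10 were negative and 7 opposite. Markers of leukocytes were measured beside these genes. The macrophage genes Adgre1, Csf1r and C1qb reached at most 0.214, 0.443 and 0.693 FPKM in any library. Others were present. Ptprc and Itgax were highest in villus epi 2, at 24.6 and 4.73, and Cd68 reached 2.49. Tyrobp was at 0.489 to 1.65 in crypt EC, 1.46 to 2.69 in villus EC, 1.48 to 2.76 in crypt epi and 3.75 to 4.66 in villus epi. The 14 B, plasma and myeloid markers summed to 138 to 156 in crypt EC, 29.3 to 48.4 in villus EC, 27.6 to 31.9 in crypt epi and 39.1 to 81.6 in villus epi. Most of the crypt EC sum was C1qa, a complement gene, at 108, 127, 131 and 134 there and 18.7, 18, 20.1 and 20.3 in villus EC, but no more than 0.296 in any epi library. Without C1qa the sum was 8.97 to 29.7 in crypt EC and 9.03 to 29.7 in villus EC, nearly the same range at both sites. In epi it was 27.4 to 31.8 in the crypt and 38.8 to 81.4 in the villus. Most of this epi sum was 1 gene, Lyz2, at 19.7 to 22 in crypt epi and 28.6 to 56.4 in villus epi. Lyz2 also varied widely between EC libraries, from 1.84 to 22.2 in the crypt and from 2.13 to 20.7 in the villus. The part of leukocytes in the class II values was not tested.

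The promoter stretches of 3 class II genes and of Cat, described below, are printed because these genes had site differences of the same sign in epi, and class II promoters carry a known CCAAT-type element, the Y box. Each run covers bases -150 to -21 before the RefSeq start of transcription (GRCm38.p6) in the direction of the gene. Capitals mark CTGATTGG or its core ATTGG, searched on both strands (CCAATCAG and CCAAT on the other strand), and the core lies within the longer motif.
H2-Aa, chr17:34287844-34287973, minus strand: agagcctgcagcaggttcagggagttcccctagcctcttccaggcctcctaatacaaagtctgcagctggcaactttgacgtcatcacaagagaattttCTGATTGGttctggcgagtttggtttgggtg
H2-Eb1, chr17:34305717-34305846, plus strand: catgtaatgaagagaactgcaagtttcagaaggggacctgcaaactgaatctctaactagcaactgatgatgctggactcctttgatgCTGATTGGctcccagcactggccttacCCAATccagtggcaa
H2-DMb2, chr17:34145099-34145228, plus strand: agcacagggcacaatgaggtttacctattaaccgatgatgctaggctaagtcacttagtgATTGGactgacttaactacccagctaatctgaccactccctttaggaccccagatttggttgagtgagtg
Cat, chr2:103485174-103485303, minus strand: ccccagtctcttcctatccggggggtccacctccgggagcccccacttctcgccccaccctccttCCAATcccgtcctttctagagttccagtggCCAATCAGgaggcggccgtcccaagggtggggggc
The longer motif begins at -51 in H2-Aa and -62 in H2-Eb1, and Cat holds it on the other strand, with a separate core at -85, while H2-DMb2 holds only the core, at -90. Among all 32851 RefSeq promoters given, 2.86% held CTGATTGG in the same 130 bases and 22.5% held ATTGG. The stretches were picked by hand, and those of the other class II genes are not printed. Their matches therefore give no share to set against that of all promoters. The matches describe letters and not binding.

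Sugar handling moved apart as well. Slc2a5, the fructose transporter, was at 18.7, 26.7, 21.6 and 25.1 in crypt EC, 2.35, 7.26, 5.49 and 0.509 in villus EC, 58, 54.6, 20.8 and 62.1 in crypt epi and 435, 118, 626 and 608 in villus epi. Khk, ketohexokinase, which phosphorylates fructose, is named after its values were seen. It had 29.4, 31.6, 30.5 and 23 and 17, 11, 9.34 and 6.38 in crypt and villus EC, and 159.6, 152, 114 and 145 and 577, 524, 713 and 646 in crypt and villus epi. Both genes thus lay lower in villus than in crypt EC, without overlap. Of 12 carbohydrate genes 11 were negative and 0 positive (median -3.67), 12 rose in villus epi and 4 fell in villus EC. Sucrase-isomaltase, Sis, was the exception, at a difference of differences of 0.44 (adjusted p = 0.635), since it rose in both cell types (2.04 in EC and 1.59 in epi). Enterocyte markers in EC did not fall with Slc2a5 and Khk. They summed to 794 to 1787 in crypt EC and 1994 to 3138 in villus EC, so the fall of Slc2a5 and Khk went against the summed list, while the rise in epi (4067 to 11230 in crypt and 106682 to 167749 in villus) went with it.

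Enzymes of the peroxisome and of detoxification had some of the clearest opposite site differences. Cat, catalase, had 178, 219, 201 and 204 in crypt EC, 11.2, 17.8, 19.95 and 16.3 in villus EC, 114, 104, 71.3 and 105 in crypt epi and 480.1, 407, 509 and 508 in villus epi. All 4 groups were apart, and EC lay above epi in the crypt and below it in the villus (difference of differences -5.84 ± 0.24). Gstk1, a peroxisomal and mitochondrial glutathione transferase, was at 143, 263, 242 and 237 in crypt EC, 15.6, 23.3, 25.3 and 26.1 in villus EC, 54, 51.1, 39.6 and 58.1 in crypt epi and 226, 197, 298 and 308 in villus epi. Acaa1b, a peroxisomal thiolase, had 4.39, 5.36, 5.44 and 4.7 and 0.314, 1.67, 1.99 and 0.301 in EC and 2.81, 1.71, 0.969 and 2.83 and 93, 66, 95.6 and 95.9 in epi. A list of peroxisomal genes drawn up after the values were seen had 16 negative and 3 positive calls among 40, 7 of them opposite.

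Gstt1, a cytosolic glutathione transferase, turned from higher in EC in the crypt to overlapping in the villus. It stood at 1844, 1969, 2125 and 2048 in crypt EC, 272, 295, 304 and 337 in villus EC, 61.4, 58.1, 43 and 62.2 in crypt epi and 317, 309.9, 390.2 and 394 in villus epi, a difference of differences of -5.36 ± 0.18. Sult1d1, a sulfotransferase acting on catecholamines and related amines, was at 46.2, 30.2, 29.4 and 29.1 in crypt EC, 4.18, 5.11, 5.46 and 3.35 in villus EC, 49.3, 38.4, 38.4 and 43.8 in crypt epi and 141, 242, 185 and 179 in villus epi. Ugt1a1, the bilirubin glucuronosyltransferase, had site differences of -4.04 in EC and 0.98 in epi. In the list of xenobiotic and retinoid genes 16 of 26 were negative and 0 positive (median -2.41). In villus EC 7 of the list rose and 3 fell, and in villus epi 20 rose and 1 fell. Carboxylesterases, another list made after the values were seen, had 8 negative and 1 positive call among 12. Their sequences are close to each other, as in the Gst and Ugt families, so values of single members are uncertain.

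Several other genes of the villus epithelium belonged to the set. Btnl1, a butyrophilin-like gene whose product keeps gut intraepithelial T cells, fell in EC from 118, 92.8, 94.9 and 88.7 in the crypt to 0.986, 3.42, 2.01 and 0.201 in the villus. In epi it was at 79.6, 80.1, 77.4 and 66.8 in the crypt and 340.4, 57.1, 367 and 352 in the villus, where villus epi 2 lay below every crypt library. The rise in epi was 1.55, 1.32 without villus epi 3 (adjusted p = 0.0501, limma) and 2.2 without villus epi 2. Lect2, a secreted chemotactic factor, was at 5.46, 6.29, 3.29 and 4.51 in crypt EC, 0.135, 0.28, 0 and 0 in villus EC, 9.16, 7.7, 3.03 and 9.22 in crypt epi and 71.5, 98.7, 105 and 108 in villus epi, with 2 villus EC libraries listed at 0. Rab30, a small GTPase of the Golgi, had 139, 104, 112 and 123 and 19.9, 30.8, 39.1 and 21.2 in crypt and villus EC and 3.34, 4.61, 3.61 and 5.24 and 51.2, 40.4, 68.7 and 74.7 in crypt and villus epi.

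Clock-controlled genes are named here after their values were seen. Dbp, an output factor of the circadian clock, was at 12.9, 18.8, 20.2 and 15.3 in crypt EC, 4.43, 3.96, 5.34 and 3.47 in villus EC, 9.06, 8.28, 1.1 and 13.2 in crypt epi and 39.4, 53.2, 99.2 and 109.8 in villus epi. Per3, a clock repressor, had 10.6, 12.4, 13.9 and 15.6 in crypt EC, 3.33, 3.87, 3.58 and 3.17 in villus EC, 4.61, 5.42, 1.85 and 5.91 in crypt epi and 7.89, 54.5, 8.85 and 7.66 in villus epi. Villus epi 2 was far above its group for Per3, and without it the rise in epi was 0.82 in place of 1.47. Without crypt epi 3 that rise was not called (1.19, adjusted p = 0.0576, limma). Of 19 clock genes 5 were negative, 0 positive and 2 opposite. The time of day of collection is not given in the sources used here.

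The endocrine genes in the reverse set were lower in villus EC from high levels and higher in villus epi from low ones. Ddc, the decarboxylase that makes serotonin from its precursor, was at 1055, 877, 823 and 860.4 in crypt EC and 328, 352, 367 and 417 in villus EC. In epi it rose from 75.5, 79, 68.6 and 72.8 in the crypt to 252, 223, 275 and 266 in the villus. Tac1, which encodes substance P, fell in EC from 6331, 4557, 4339.9 and 4335 to 1146, 1257, 1512 and 1323, and its epi values were 5.31, 4.31, 19.6 and 5.26 in the crypt and 11.1, 14.4, 15.8 and 16.2 in the villus, with crypt epi 3 above all villus epi libraries. The rise of Tac1 in epi, 0.91, was not called in 5 of the 16 leave-one-out fits. It ranged from 0.71 (adjusted p = 0.0891) without crypt epi 2 to 0.86 (0.0543) without villus epi 3, and also failed without crypt epi 1, crypt epi 4 and villus epi 4 (limma). Ucn3, which encodes urocortin 3, was at 504, 812, 835 and 784 in crypt EC, 314, 255, 289.6 and 286 in villus EC, 0.272, 0.0572, 0.0569 and 0.272 in crypt epi and 2.14, 1.55, 2.69 and 2.2 in villus epi. Other EC transcripts were measured in epi beside these. Chga, chromogranin A, in epi was 0.0705% of its EC level in the crypt and 0.477% in the villus, and Tph1 0.0291% and 0.329%. Reg4 and Sct went the other way, 3.67% and 0.223% for Reg4 and 4.48% and 0.846% for Sct. The part of EC cells or their RNA in the epi values was not tested.

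**Figure D3:**
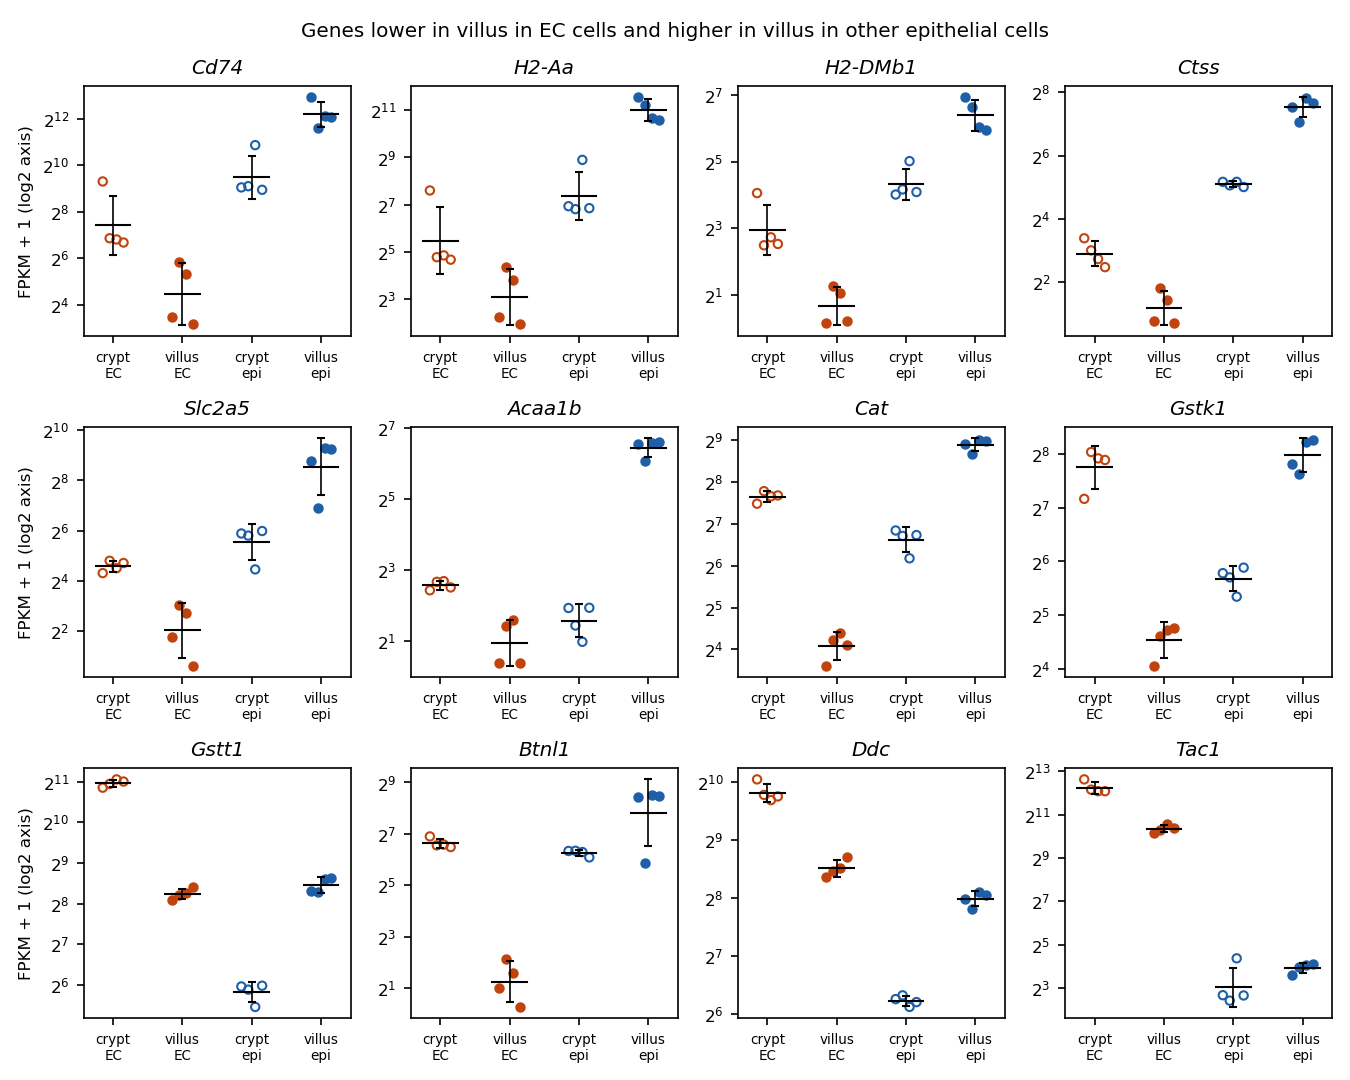
FPKM + 1 on a log2 axis in each library for 12 genes that were lower in villus in EC and higher in villus in epi, drawn as in the plot of the first set. Filled red points lie below open red ones in every panel, and filled blue points lie above open blue ones except for villus epi 2 of Btnl1 and crypt epi 3 of Tac1.

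Some of the largest differences of differences came from genes that moved in one cell type. Igfbp2, an insulin-like growth factor binding protein, was at 185, 284, 286 and 254 in crypt EC and 0.523, 0.443, 0.687 and 0.651 in villus EC, with at most 0.674 in any epi library (-7.63 ± 0.24). Pyy, peptide YY, moved only in EC among the site calls, from 6.71, 33.8, 31.7 and 22.9 in the crypt to 700.04, 1286, 1790.02 and 1476 in the villus, against 216, 233, 70.1 and 107 and 107, 125, 197 and 119.7 in epi. Mbl2, a mannose-binding lectin, rose in epi from 1.81, 1.07, 1.15 and 1.31 to 173, 424, 542 and 560.1 and reached at most 0.579 in any EC library. Gcg, the proglucagon gene, fell in epi from 371, 181, 212 and 232 to 1.99, 0.636, 3.49 and 0.303. Its EC values were 35.2, 0, 0.26 and 0.114 in the crypt and 0, 28.6, 9.12 and 0 in the villus, a wide scatter in which 3 libraries were listed at 0, and its difference of differences was 7.34 ± 1.64.

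Genes of serotonin metabolism did not share a direction. Of 15 tested 4 were positive and 9 negative (median -1.50). Without villus epi 2, 4 were positive and 11 negative, and 2 and 5 lay in the first and the reverse opposite set, against 0 and 1 with all libraries. Tph1, the gene that defines the sort and makes serotonin's precursor, was at 3678, 5573, 6163 and 6152 in crypt EC and 13599.5, 15288, 15064 and 17178 in villus EC, and at 1.95, 1.84, 0.733 and 1.76 and 44.9, 87.2, 22.8 and 46.4 in crypt and villus epi. It rose in both cell types, by 1.53 in EC and 4.2 in epi. The negative difference of differences (-2.67 ± 0.43, adjusted p = 0.000142) thus rests on low epi values and not on a fall in EC. Slc18a2, a vesicular monoamine transporter, had a site difference of -4.02 in EC with no site call in epi (0.64), and its difference of differences was -4.66 (adjusted p = 5.71e-05). Of the 4 somatostatin receptors tested, 2 were positive and 0 negative. Sstr2 was at 7.09, 7.05, 8.49 and 8.5 in crypt EC and 25.1, 21.8, 30.3 and 15 in villus EC, against 2.06, 0.984, 1.15 and 1.48 and 1.21, 0.135, 0.914 and 0.771 in epi, a difference of differences of 1.9 ± 0.33 (adjusted p = 0.000296). Sstr5 gave 1.31 ± 0.38 (adjusted p = 0.0106) and was not called with a pseudocount of 0.1 (1.81, adjusted p = 0.0777). Sstr1 and Sstr3 were not called, at -0.15 (adjusted p = 0.813) and -0.29 (adjusted p = 0.389).

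Other lists differed mainly through epi. All 49 cytosolic ribosomal protein genes were positive (median 2.0), with 49 lower in villus epi and 38 also lower in villus EC. Of 30 cell cycle genes 21 were positive and 0 negative, and none had opposite site differences, since 28 fell in EC and 29 in epi. Of 20 lipid absorption genes 17 were negative, 20 rose in villus epi and 7 in villus EC. Of 13 mitochondrially encoded transcripts 12 were negative, with 13 higher in villus epi and 0 called in EC. Mitochondrial transcripts took 5.26% to 14.9% of the total in villus epi and 2.23% to 4.32% elsewhere.

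**Figure D4:**
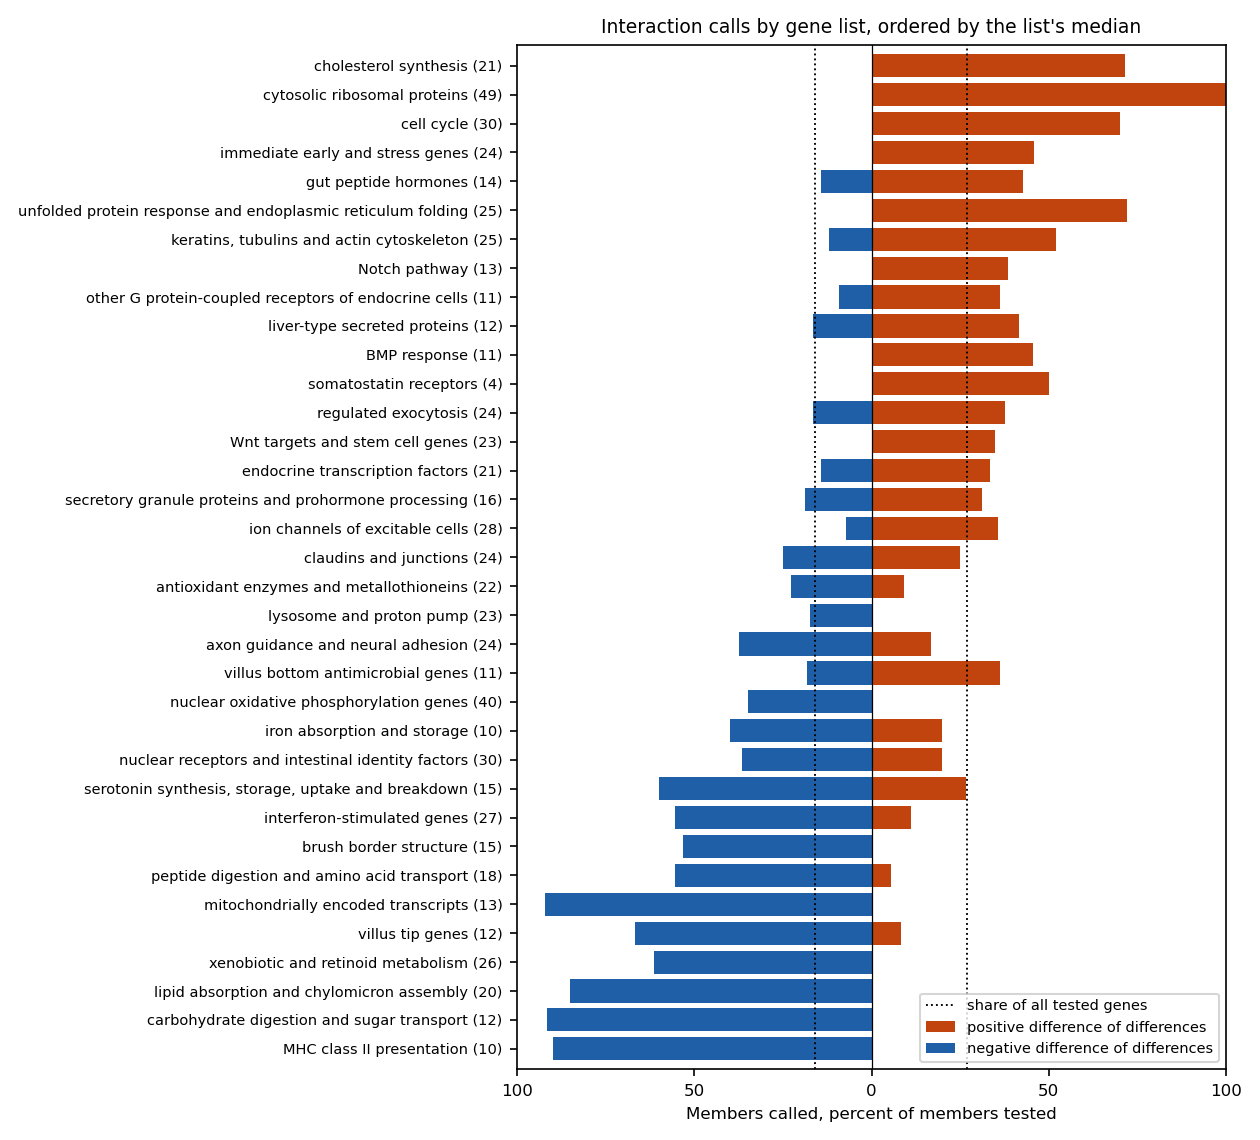
Percent of the tested members of each gene list with a positive (red, right) or negative (blue, left) difference of differences, with the number tested in brackets and lists ordered by their median. Dotted lines mark the 26.9% and 16% of all tested genes, and ribosomal proteins (49 of 49 positive) and carbohydrate genes (11 of 12 negative) lie near the ends.

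Leaving out villus epi 2 raised the number of calls. The fit of 15 libraries tested 13936 genes and called 5211 positive and 3352 negative, and 5971 of the 6050 genes called with all libraries were called again. Opposite site differences were called in 637 and 648 genes. These included 299 of the 312 (95.8%, or 46.9% of the 637) and 271 of the 278 (97.5%, or 41.8% of the 648). None of the 216 genes followed by name reversed, for example 6.32 for Agr2, 3.94 for Krt19, -5.92 for Cat and -6.13 for Slc2a5. The EC site contrast gained too, to 2694 higher and 3848 lower, although no EC library had changed, because the 4 groups share 1 estimate of spread. Leaving out any other single library gave 250 to 338 genes in the first set and 220 to 278 in the second. Of the 76 opposite genes followed by name, 64 stayed in their set in all 16 of these fits.

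**Figure D5:**
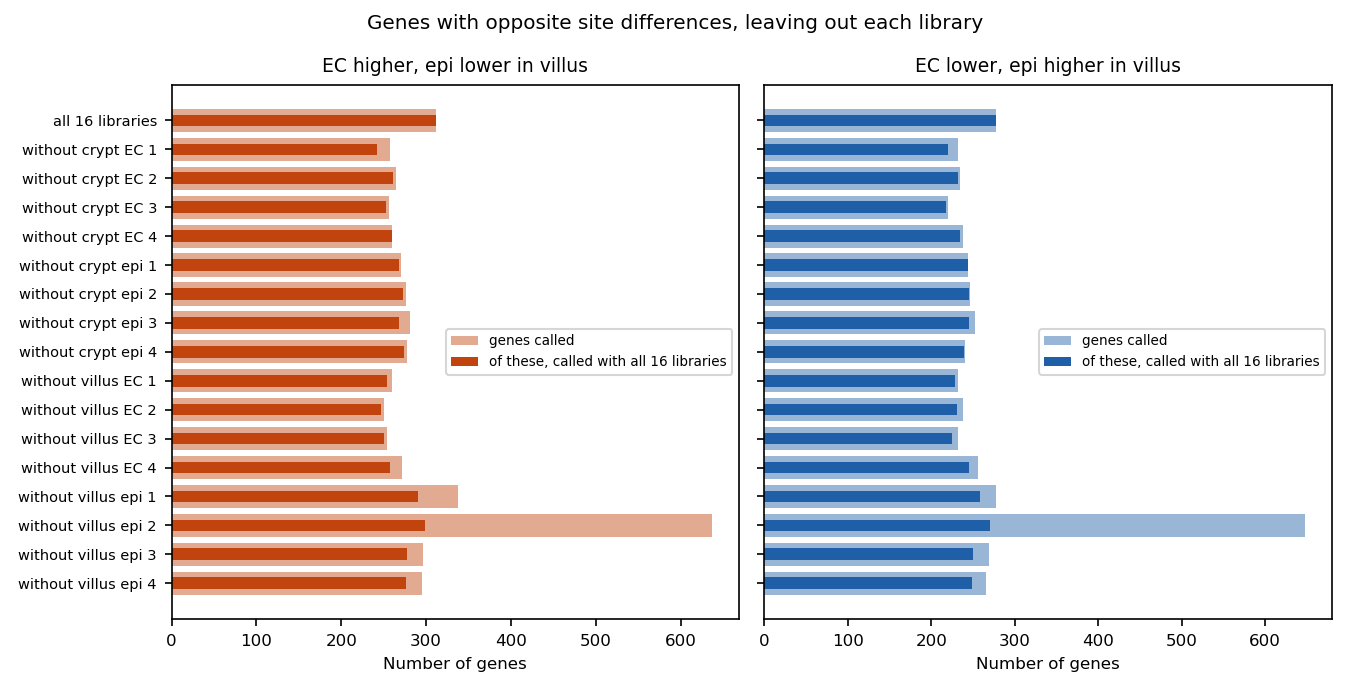
Number of genes with opposite site differences with all 16 libraries and after leaving out each library in turn, pale bars for all genes called and dark bars for those also called with all libraries. Only the fit without villus epi 2 exceeded 338 genes in the first set (637) or 278 in the second (648).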

How the data were processed

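Gene-level FPKM values of 16 libraries were used as deposited by the authors, with no counts or depths, so the read depth behind each value is unknown. Libraries were full-length cDNA of 5000 pooled cells, per the labels' protocols. Per the submitters' processing notes, bcl2fastq 2.20, kallisto, sleuth and mm10 were used, while scaling and annotation release are not stated in these sources. No pair of columns was identical (0 pairs). Values were taken as log2(FPKM + 1), which understates the change of low genes, and genes at 1 or more in at least 4 libraries were kept. limma 3.58.1 in R 4.3.3 fitted the 4 group means with a mean-variance trend and 12 residual degrees of freedom. Site contrasts and their difference were called at a Benjamini-Hochberg adjusted p below 0.05 over all tested genes. The code was tested on simulated data. Python 3.11.15 and matplotlib 3.10.9 drew the figures.

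Members and lists were chosen with earlier results of these data known. Named genes were the 12 of each opposite set with the largest smaller site difference, the 8 largest positive and 8 largest negative differences of differences (both with a group mean of at least 5), up to 4 called members per list, and fixed genes. Khk, Dbp, Per3, Hmgcs1, Xbp1, Krt18, Tff3, H2-DMa, H2-Eb1, H2-Ab1, Ciita and Sis, and the genes at the edge of the rule, were chosen after their values were seen, as were the clock, peroxisome, butyrophilin-like and carboxylesterase lists. Alternatives were other pseudocounts, filters, scalings, weights and thresholds, replicate blocks, and leaving out each library.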

Additional observations from a re-analysis of the deposited data

Results flagged for a closer look

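Single libraries stood far from the other 3 of their group in 36 of 232 groups of 4 values (15.5%), taken over 44 genes and 14 library measures, by Dixon's criterion at the 95% level. Chance gives about 1 in 20 such groups. The part of these libraries in the results is given above where they were left out, and its cause was not tested.

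Crypt EC 1 was the outlying library in 3 library measures and 13 genes. It had the lowest correlation with its group (0.9713), the lowest tuft marker sum (16.543 FPKM) and the highest stromal and endothelial sum (40.4723). It was low for Agr2 (248.326), Agr3 (62.6939), Ern2 (5.45541), Clps (143.847), Krt7 (243.763), Krt19 (1094.03) and Ucn3 (503.678). The values that stood out for class II genes were 628.792 for Cd74, 193.555 for H2-Aa and 15.6338 for H2-DMb1. Tac1 (6330.64), Sult1d1 (46.1629) and Gcg (35.209) also stood apart there. In crypt EC 4 the enteric neuron and glia sum did (28.8321).

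Crypt epi 3 stood apart in the enterocyte marker sum (4066.65) and in 5 genes, Cd74 (1859.34), H2-Aa (476.015), H2-DMb1 (31.3692), Tac1 (19.5542) and Tph1 (0.732795). Crypt epi 2 did for the B, plasma and myeloid sum (31.8616) and Foxa1 (3.43157), and crypt epi 4 for Sox4 (10.4367).

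Villus epi 2 stood apart in its column total (1190720), its correlation with the group (0.8119), the B, plasma and myeloid sum (81.6241) and the stromal and endothelial sum (163.649). The genes were Agr3 (15.039), Sox4 (3.13217), Acaa1b (65.9506), Btnl1 (57.0626) and Per3 (54.5284). Villus epi 1 stood apart for Agr2 (749.352).

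The site difference itself differed between the cell types, by the limma test of the difference of differences, in 3792 genes on the positive side and 2258 on the negative side. Among these, 312 and 278 had opposite site differences.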

How the results depend on the processing

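None of the 216 genes followed by name reversed under any alternative, and 21 changed their call under at least 1. Leaving out each library in turn gave 3461 to 5211 positive and 1999 to 3352 negative differences of differences. The opposite sets held 250 to 637 and 220 to 648 genes. EC had 1149 to 2694 genes higher and 1751 to 3848 lower in villus, and epi 2447 to 3554 higher and 4581 to 5828 lower. The highest value of each range came without villus epi 2. Weighting libraries by their fit gave 3549 negative differences of differences, opposite sets of 758 and 719, and 3086 higher and 4169 lower genes in EC. Requiring an absolute log2 difference of at least 1 left 105 and 90 in the opposite sets, 738 and 1169 in EC and 1760 higher in epi. Scaling each library to the same total gave 3503 genes lower in villus EC. It moved the medians of all genes to -0.23 in EC and -0.38 in epi. The share of higher genes among site calls was then 24.5% in EC and 24.9% in epi, against 38.9% and 35.6% as deposited. Opposite sets then held 279 and 339 genes, among them 232 of the 312 and 203 of the 278, and Per3 and Tac1 were not called in epi (adjusted p = 0.0508 and 0.123). Median-ratio scaling moved the epi median by over 0.1, to -0.06, and gave 294 and 263, among them 266 and 227. Tff3 was not called in epi there (-0.62, adjusted p = 0.111). The cause of these changes was not tested.

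With the number in the title as a replicate block, 3650 positive and 2185 negative differences of differences and 281 and 243 opposite genes were called. With the number in the library name as a replicate block these were 3716, 2217, 305 and 271. Deviations from the group means correlated above 0.1 in 4 of 24 same-numbered pairs by title and in 1 of 10 by library name. The same held for 13 of 68 pairs without a shared number. These counts cannot tell whether libraries shared a mouse, because the deviations are taken from means of only 4 libraries. Low values, without known depth, limit what can be said of genes near 0.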

Other observations

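Gene lists not described above gave these counts, against 26.9% positive and 16% negative among all tested genes. Of 27 interferon-stimulated genes 15 were negative and 3 positive (median -1.50), with 14 higher and 6 lower in villus epi and 1 higher and 7 lower in villus EC. Of 24 immediate early and stress genes 11 were positive and 0 negative (median 1.54), with 6 higher and 0 lower in villus EC and 2 higher and 8 lower in villus epi. Nuclear genes of oxidative phosphorylation gave 14 negative and 0 positive among 40, with 0 higher and 17 lower in villus EC and 13 higher and 3 lower in villus epi.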
